A study of Mus musculus with 7 samples.

Results

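The collagen genes of the mouse were followed in nasal tissue after inhalation of diesel exhaust particles (DEP). They were taken as every gene on the array whose symbol is Col, a number, a and a number, found through the transcript that each probe was designed for. This gave 44 collagen genes among the 32095 genes and transcripts on the array. For 36 of them a probe was well above background in either RNA on at least 3 of the 7 arrays, and these 36 were tested. The other 8 were too dim, namely Col4a3, Col6a4, Col6a5, Col6a6, Col9a3, Col13a1, Col19a1 and Col28a1.

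Female BALB/c mice, 6 weeks old at the start, inhaled nebulized DEP suspended in saline at 100 µg/m3 for 1 hour a day on 5 days a week, and control mice inhaled saline in the same way. RNA came from the septum and turbinates between the incisive papilla and the second molar, so the dissected piece can hold mucosa, cartilage, bone and tooth-bearing tissue. Each array carried RNA of DEP-exposed tissue in the Cy5 channel and RNA of control tissue in the Cy3 channel, and 4 arrays were measured after 4 weeks and 3 arrays after 8 weeks. The dyes were never swapped, so an effect of the dye on a probe cannot be told apart from that of DEP. The arrays of each time lie on their own slide, so the effect of the slide cannot be told apart from that of the time. How many mice gave RNA to an array is not given in the sources used here, and the p-values measure the spread between these arrays. Between 18601 and 25069 of 39429 probes were well above background with DEP RNA and between 16985 and 26927 with control RNA. Of the collagen genes, 24 to 36 were well above background in a channel of an array.

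Collagens are built of chains that wind into a triple helix, and the genes fall into classes by the structure that the helices form. Fibrillar collagens make the rope-like fibrils of dermis, bone, dentine, cartilage and mucosal stroma. Basement membrane collagens make the sheet on which epithelium and endothelium rest. The others include collagens that sit on the surface of fibrils (the FACIT class), beaded filaments, hexagonal networks, anchoring fibrils and collagens that span the cell membrane. In nasal tissue, fibroblasts of the lamina propria, chondrocytes of the septum and osteoblasts of the turbinate bone are the main producers of fibrillar collagen. In a bulk sample, fewer cells of a type and less RNA per cell cannot be told apart.

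The values below are log2 ratios of DEP over control on each array, so that -1 is a halving and 1 is a doubling. A constant of 50 was added to every signal before the logarithm, which makes the ratios of dim probes smaller than the true change. A gene was called when its p from limma's linear model, adjusted by Benjamini-Hochberg across the 25162 tested probes, reached 0.05 or less.

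After 4 weeks, DEP-exposed tissue held less mRNA of many fibrillar collagens, led by Col3a1 and the fibril-surface collagen Col12a1. Of the 36 tested collagen genes, 16 were lower and 4 were higher. Over all 20664 genes tested at this time, 16.5% were called lower and 21.6% higher. The median log2 ratio of the collagen genes was -0.24, against 0.00 for all genes tested. The ratio was below 0 on all 4 arrays for 19 collagen genes and above 0 on all 4 arrays for 6. Such agreement of arrays was not counted over all genes, so it is no result about the collagens. The calls upward were the less secure, since without replicate 2 or without replicate 3 there were 0 and without replicate 4 there was 1. The calls downward numbered 13 to 17 when any 1 array was left out. Each array's constant shift was removed by intensity-dependent (loess) normalization. With median centring in its place 18 collagen genes were lower and 1 was higher, while the scanner software's own processed signals gave 13 lower and 7 higher. These settings also moved the median of all genes at 4 weeks, from 0.00 to -0.04 with median centring and to 0.09 with the processed signals.

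After 8 weeks 9 collagen genes were higher and 1 was lower, and the median stood at 0.07 against 0.01 for all genes. At that time 20.3% of all genes were called higher and 17% lower, against 25% and 2.78% of the tested collagen genes. The count of higher collagen genes thus lies near the share over all genes. The calls were to Col1a1, Col3a1, Col5a2, Col12a1, Col20a1, Col7a1, Col17a1, Col4a4 and Col4a6 upward, and to Col22a1 downward. With median centring, 8 collagen genes were higher and 5 lower, and the median was -0.01. That setting moves the median of all genes from 0.01 to -0.11. The downward call to Col22a1 was lost when any 1 of the 3 arrays was left out.

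The thresholds of the study itself are an unadjusted p of at most 0.01 with at least a 2-fold change. At these, 2 collagen genes were lower at 4 weeks, Col3a1 and Col12a1, and 0 were higher. Over all genes 0.368% were lower and 0.934% higher by this rule. At 8 weeks 1 collagen gene was higher, Col17a1, and 0 were lower, with 2.1% of all genes higher and 0.847% lower. The methods' t-test at these thresholds gave 0 collagen genes higher at 8 weeks, as did median centring. With the processed signals Col11a1 was also lower by this rule at 4 weeks.

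**Figure D1:**
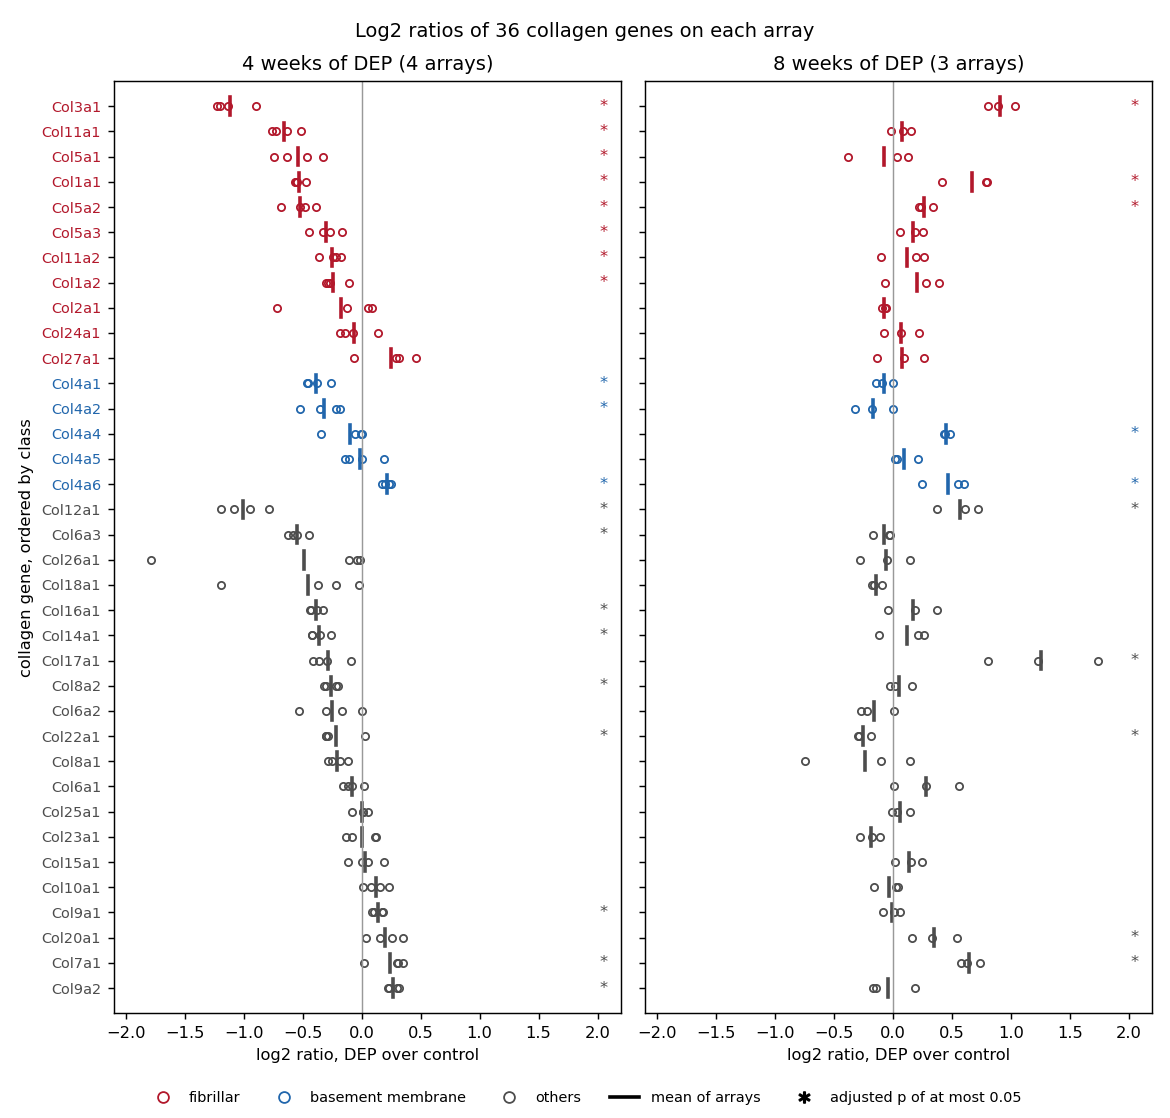
Log2 ratio of DEP over control (x axis) of the 36 tested collagen genes (y axis, grouped by class) at 4 weeks (left) and 8 weeks (right). Circles are arrays, bars are the means and asterisks mark adjusted p-values up to 0.05. Of the 11 fibrillar genes, 8 lay left of 0 on every array at 4 weeks, which was not counted over all genes. Single arrays stand apart for Col26a1, Col18a1 and Col2a1.

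Markers of several tissues that the dissected piece can hold differed between DEP and control RNA, some in the direction of the collagens and some against it. Their counts stand against 16.5% lower and 21.6% higher over all genes at 4 weeks, and 17% lower and 20.3% higher at 8 weeks. Of 7 tested odontoblast and ameloblast genes, which make dentine and enamel, 6 were lower at 4 weeks and all 7 were higher at 8 weeks, with medians of -1.33 and 1.01. Their summed intensity at 4 weeks was 5502 to 6111 with DEP RNA and 16470 to 17832 with control RNA, and at 8 weeks it was 80561 to 104404 with DEP RNA and 45812 to 46548 with control RNA. With DEP RNA the enamel gene Amtn did not rise well above background at 4 weeks. Of 9 tested osteoblast and osteocyte genes, 4 were lower and 1 was higher at 4 weeks, and 5 were higher and 0 lower at 8 weeks. Their summed intensity ran from 20754 to 24014 (DEP) against 25419 to 26799 (control) at 4 weeks, and from 36817 to 42458 against 30323 to 31504 at 8 weeks, with Sost too dim to test. The 1 higher gene was Runx2, which like Sp7 was not well above background with control RNA at 4 weeks. Of 9 fibroblast genes, 6 were lower at 4 weeks, and 2 were higher and 1 lower at 8 weeks. Their summed intensity was 11711 to 12213 (DEP) against 15245 to 16901 (control) at 4 weeks, and 15797 to 16287 against 14835 to 15429 at 8 weeks. Olfactory neuron markers went against the collagens, with 5 of 7 higher and 0 lower at 4 weeks (median 0.44) and all 7 lower at 8 weeks (median -0.71). Their summed intensity was 145431 to 159938 (DEP) against 79119 to 93882 (control) at 4 weeks, and 93577 to 98546 against 131135 to 147442 at 8 weeks. Of 6 skeletal muscle markers 3 were lower and 1 higher at 4 weeks (median -0.15) and 4 lower and 1 higher at 8 weeks (median -0.67), and of 6 respiratory epithelium markers 2 were higher and 1 lower at 4 weeks (median 0.04) and 4 higher and 0 lower at 8 weeks (median 0.40). The fibroblast counts at 8 weeks and the respiratory epithelium counts at 4 weeks lay near the shares over all genes. The part of any of these cell types in the collagen ratios was not tested.

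The fibrillar collagens were lower at 4 weeks with no call upward. All 11 of them were tested, and at 4 weeks 8 were lower and 0 higher, with a median of -0.30. The class median was -0.24, -0.36, -0.46 and -0.32 on the 4 arrays. At 8 weeks 3 were higher and 0 lower, with a median of 0.12 and array medians of 0.15, 0.22 and 0.06. Over all genes 16.5% were called lower and 21.6% higher at 4 weeks, and 17% lower and 20.3% higher at 8 weeks. The count of higher fibrillar genes at 8 weeks lies near that share.

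Col3a1, which encodes the chain of type III collagen in soft and distensible connective tissue, had the lowest ratio of all collagen genes at 4 weeks. Its log2 ratios were -0.90, -1.22, -1.13 and -1.20 on the 4 arrays, and 0.89, 1.04 and 0.81 on the 3 arrays at 8 weeks. All 4 arrays at the earlier time were low and all 3 at the later time were high, with no overlap. The mean of -1.11 ± 0.07 (SE, n = 4) at 4 weeks is a 2.16-fold lower level with an adjusted p of 2.37e-05, and the mean of 0.91 ± 0.08 (SE, n = 3) at 8 weeks is a 1.88-fold higher level with an adjusted p of 1.04e-04. Both calls were kept under every alternative setting and with any array left out. Col3a1, Col11a1 and Col12a1 also stand in a gene list that the study drew from these arrays, so their values are not independent evidence.

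Col1a1 and Col1a2 encode the α1 and α2 chains of type I collagen, the main collagen of bone, dentine and skin. Col1a1 gave -0.56, -0.56, -0.54 and -0.47 at 4 weeks and 0.42, 0.80 and 0.79 at 8 weeks. It was lower at the earlier time (mean -0.53 ± 0.07, adjusted p = 9.50e-04) and higher at the later one (mean 0.67 ± 0.08, adjusted p = 5.70e-04), and its arrays of the 2 times did not overlap. Col1a2 gave -0.11, -0.30, -0.28 and -0.26 at 4 weeks and 0.39, 0.28 and -0.07 at 8 weeks. Its 4-week mean was -0.24 ± 0.08 (adjusted p = 0.0444), a call that was lost without replicate 2, 3 or 4 of 4 weeks or replicate 2 of 8 weeks, and its 8-week mean of 0.20 ± 0.09 was not called (adjusted p = 0.119). The ratios of these partner chains were not tested against each other.

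The promoter windows of Col3a1 and Col1a2, both lower at 4 weeks with ratios of different size, are shown here as RefSeq gives them in GRCm38.p6, from 250 bases before to 50 bases after the start of the gene, on the gene's strand. Capitals mark the letters TATAAA, the CCAAT box and the GC box GGGCGG, and a match on the other strand is marked where its complement stands. The Col3a1 window is chr1:45311288-45311587 (plus strand) and that of Col1a2 is chr6:4505368-4505667 (plus strand).
Col3a1: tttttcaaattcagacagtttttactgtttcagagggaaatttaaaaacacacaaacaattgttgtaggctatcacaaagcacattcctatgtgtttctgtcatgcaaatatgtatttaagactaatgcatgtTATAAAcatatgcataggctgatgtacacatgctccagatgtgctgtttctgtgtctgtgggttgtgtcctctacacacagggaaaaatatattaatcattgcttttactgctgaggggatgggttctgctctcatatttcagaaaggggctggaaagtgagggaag
Col1a2: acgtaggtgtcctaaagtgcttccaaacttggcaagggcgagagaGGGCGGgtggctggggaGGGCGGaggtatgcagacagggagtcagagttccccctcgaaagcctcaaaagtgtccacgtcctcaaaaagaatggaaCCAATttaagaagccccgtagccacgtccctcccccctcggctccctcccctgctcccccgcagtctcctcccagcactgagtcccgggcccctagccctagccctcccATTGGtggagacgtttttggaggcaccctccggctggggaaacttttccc
The Col3a1 window holds 1 TATAAA, with its first base at -117, and 0 of the other motifs. The Col1a2 window holds 2 CCAAT and 2 GGGCGG and 0 TATAAA. Of all 32851 RefSeq promoter windows of this length, 13.6% hold TATAAA, 37.4% hold CCAAT and 35.7% hold GGGCGG. RefSeq windows were at hand for 35 of the 44 collagen genes, some with 2 starts, and of these 38 windows 5 hold TATAAA, 13 hold CCAAT and 23 hold GGGCGG. A match is a run of letters and not a site shown to be used.

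The minor fibrillar collagens set the width of type I and type II fibrils. Col11a1, a chain of type XI collagen of cartilage, gave -0.52, -0.76, -0.63 and -0.73 at 4 weeks and 0.15, 0.09 and -0.01 at 8 weeks. It was lower at 4 weeks (mean -0.66 ± 0.06, adjusted p = 1.26e-04) and not called at 8 weeks (0.08 ± 0.06, adjusted p = 0.407). Its signals were dim, 114 to 120 with DEP RNA and 186 to 196 with control RNA at 4 weeks before background correction. Col5a1, a chain of type V collagen inside type I fibrils, gave -0.74, -0.63, -0.46 and -0.32 at 4 weeks (mean -0.54 ± 0.10, adjusted p = 4.50e-03) and -0.38, 0.13 and 0.04 at 8 weeks (mean -0.07, adjusted p = 0.663). Its partner Col5a2 was lower at 4 weeks (-0.52 ± 0.06, adjusted p = 4.47e-04) and higher at 8 weeks (0.27 ± 0.07, adjusted p = 0.0165), the latter lost without replicate 2 or 3 of 8 weeks. Col5a3 (-0.30) and Col11a2 (-0.25) were lower at 4 weeks and not called at 8 weeks, with means of 0.17 and 0.12. The Col11a2 call was lost when replicate 1, 2 or 3 of 4 weeks was left out.

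The 3 fibrillar genes without a call at either time were Col2a1, Col24a1 and Col27a1. Col2a1, the main collagen of hyaline cartilage such as that of the septum, gave -0.12, 0.09, -0.72 and 0.05 at 4 weeks, so that 1 array stood apart, and -0.09, -0.07 and -0.06 at 8 weeks. Its 4-week mean was -0.17 (adjusted p = 0.296), and 0.01 without replicate 3. Col27a1, a cartilage collagen, gave -0.07, 0.29, 0.32 and 0.47 at 4 weeks, a mean of 0.25 ± 0.10 with an adjusted p of 0.0727, and 0.09, -0.14 and 0.26 at 8 weeks. With the processed signals it was called higher at 4 weeks at 1.30 (adjusted p = 1.38e-03), and its probe was well above background on 1 of 4 control arrays. Of 9 other chondrocyte genes only Acan, Sox9 and Comp could be tested. At 4 weeks Sox9 was lower at -0.16 (adjusted p = 0.027) and at 8 weeks higher at 0.20 (adjusted p = 0.0193). Acan (-0.05 at 4 weeks and 0.17 at 8 weeks) and Comp (-0.78 and -0.38) were not called at either time. Matn1, Matn3, Cnmd and Hapln1 were among those too dim to test.

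Collagens on the surface of fibrils were called in both directions at 4 weeks. Of 9 FACIT genes 7 were tested, and at 4 weeks 4 were lower and 2 higher. Over all genes 16.5% were called lower and 21.6% higher at this time, so the count of higher FACIT genes lies near that share. Col12a1, which lies along type I fibrils in tendon, ligament and bone surface, gave -0.78, -0.95, -1.08 and -1.19 at 4 weeks and 0.38, 0.61 and 0.72 at 8 weeks. It was 2.00-fold lower at 4 weeks (adjusted p = 9.81e-05) and 1.49-fold higher at 8 weeks (mean log2 ratio 0.57 ± 0.09, adjusted p = 2.65e-03), with no overlap of arrays. The 8-week call was lost with the methods' t-test (Benjamini-Hochberg adjusted p = 0.0702, in limma's place). Col14a1 at -0.36 and Col16a1 at -0.39 were lower at 4 weeks (adjusted p = 6.11e-03 and 3.50e-03) and stood at 0.12 and 0.17 at 8 weeks without a call. A second Col14a1 probe gave -0.03 at 4 weeks, so the probes of this gene disagree.

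Col22a1, a collagen of tissue junctions such as that of muscle and tendon, was the single FACIT gene lower at both times. It gave 0.03, -0.30, -0.29 and -0.30 at 4 weeks (mean -0.22, adjusted p = 0.0357) and -0.19, -0.29 and -0.29 at 8 weeks (mean -0.26, adjusted p = 0.0324). Both calls were lost when single arrays were left out, namely replicate 2, 3 or 4 of 4 weeks or replicate 2 or 3 of 8 weeks for the earlier and any 8-week array for the later. Col9a2, a chain of the type IX collagen that covers cartilage fibrils, gave 0.23, 0.32, 0.30 and 0.23 at 4 weeks (mean 0.27 ± 0.07, adjusted p = 0.0153), lost without replicate 2 or 3, and 0.19, -0.14 and -0.17 at 8 weeks. Col9a1 was called higher at 4 weeks (adjusted p = 0.0491), but it was not well above background on any of the 4 control arrays, so no fold is given, and leaving out any 4-week array, or replicate 2 or 3 of 8 weeks, ended the call. Col20a1, whose function is little known, gave 0.04, 0.26, 0.16 and 0.35 at 4 weeks (mean 0.20, adjusted p = 0.067). At 8 weeks it gave 0.33, 0.54 and 0.17 (mean 0.35 ± 0.09, adjusted p = 0.0164). That call was lost without replicate 1 or 2 of 8 weeks, with median centring and with the methods' t-test. A second, dimmer Col20a1 probe gave 0.17 at 8 weeks without a call (adjusted p = 0.0668).

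**Figure D2:**
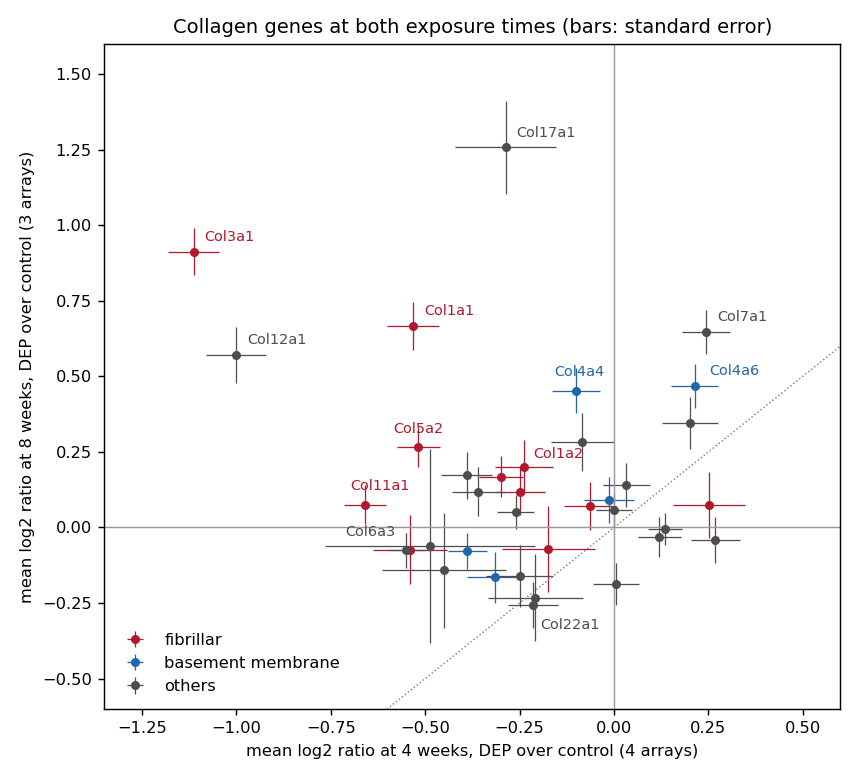
Mean log2 ratio of DEP over control at 4 weeks (x axis, 4 arrays) against that at 8 weeks (y axis, 3 arrays) for the 36 tested collagen genes, coloured by class, with standard errors as bars and equal ratios on the dotted line. Col3a1, Col12a1, Col1a1 and Col5a2 lie in the upper left, lower at 4 weeks and higher at 8 weeks, and Col17a1 lies highest at 1.26.

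Type VI collagen forms beaded filaments around cells, and 3 of its genes were tested. Col6a3 gave -0.58, -0.62, -0.44 and -0.55 at 4 weeks and -0.03, -0.17 and -0.02 at 8 weeks, so the arrays of the 2 times did not overlap. It was lower at 4 weeks (mean -0.55 ± 0.05, adjusted p = 1.82e-04), a call kept under every alternative, and not called at 8 weeks (-0.07, adjusted p = 0.357). Its partners were not called, with means of -0.08 and 0.28 for Col6a1 and of -0.25 and -0.16 for Col6a2 at the 2 times. Col6a2 gave -0.53, -0.16, 0.00 and -0.30 at 4 weeks and 0.01, -0.22 and -0.27 at 8 weeks.

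Of the 6 basement membrane genes 5 were tested. At 4 weeks 2 were lower and 1 higher, and at 8 weeks 2 were higher and 0 lower. Over all genes 16.5% were called lower and 21.6% higher at 4 weeks, and 17% lower and 20.3% higher at 8 weeks. Type IV collagen is assembled from α1 and α2 chains in nearly every basement membrane, and from α3 to α6 chains in particular epithelia. Col4a1 gave -0.46, -0.38, -0.26 and -0.46 at 4 weeks (mean -0.39 ± 0.05, adjusted p = 1.16e-03) and 0.00, -0.14 and -0.09 at 8 weeks (mean -0.08, adjusted p = 0.357). Col4a2 gave -0.52, -0.18, -0.21 and -0.35 at 4 weeks (mean -0.32 ± 0.07, adjusted p = 0.0128) and 0.00, -0.32 and -0.17 at 8 weeks (mean -0.17, adjusted p = 0.171). Both ubiquitous chains were thus lower at 4 weeks on all arrays, and neither was called at 8 weeks. The 4-week call to Col4a1 was kept under every alternative, and that to Col4a2 was lost with the processed signals and with the methods' t-test.

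Col4a1 and Col4a2 lie head to head, and the gene pair is a textbook case of a shared promoter. Their RefSeq windows overlap by 78 bases. The Col4a1 window, chr8:11312777-11313076 (GRCm38.p6, minus strand), is shown because the pair had ratios of like size, with the same motifs in capitals.
Col4a1: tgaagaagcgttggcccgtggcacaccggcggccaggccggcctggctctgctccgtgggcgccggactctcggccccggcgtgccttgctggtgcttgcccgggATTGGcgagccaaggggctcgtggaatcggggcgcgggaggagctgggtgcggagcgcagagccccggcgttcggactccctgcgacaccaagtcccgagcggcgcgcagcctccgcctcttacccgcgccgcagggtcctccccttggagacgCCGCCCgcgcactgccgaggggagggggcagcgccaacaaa
It holds 1 CCAAT, read on the other strand with its first base at -145, and 1 GGGCGG with its first base at 10 after the start. The Col4a2 window on the plus strand, chr8:11312555-11312854, holds 1 CCAAT and 3 GGGCGG.

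Of the chains of particular epithelia, Col4a6 was called higher at both times and Col4a4 at 8 weeks. Col4a6 gave 0.24, 0.25, 0.17 and 0.20 at 4 weeks (mean 0.21 ± 0.06, adjusted p = 0.0319) and 0.60, 0.55 and 0.25 at 8 weeks (mean 0.47 ± 0.07, adjusted p = 2.16e-03). The earlier call was lost when any 1 of the 4-week arrays was left out, and the later one was kept under every alternative. At 4 weeks Col4a4 was not well above background on any control array, so no fold is given, and it gave 0.44, 0.48 and 0.44 at 8 weeks (mean 0.45 ± 0.07, adjusted p = 2.71e-03). Col4a5 was not called at either time (-0.01 and 0.09).

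Collagens that fasten epithelium to its basement membrane were among the highest at 8 weeks. Col17a1, the transmembrane collagen of hemidesmosomes in basal cells of stratified epithelium and in ameloblasts, gave -0.36, -0.29, -0.41 and -0.09 at 4 weeks and 0.80, 1.23 and 1.74 at 8 weeks. All 3 later arrays were above all 4 earlier ones, but they spread widely among themselves. Its mean of 1.26 ± 0.15 at 8 weeks is 2.39-fold with an adjusted p of 6.65e-04, and its 4-week mean of -0.29 ± 0.13 was not called (adjusted p = 0.128). The 8-week call was lost with the methods' t-test (Benjamini-Hochberg adjusted p = 0.0784, in limma's place). Col7a1, which forms the anchoring fibrils beneath that membrane, gave 0.02, 0.30, 0.35 and 0.30 at 4 weeks (mean 0.24 ± 0.06, adjusted p = 0.0203) and 0.63, 0.58 and 0.74 at 8 weeks (mean 0.65 ± 0.07, 1.57-fold, adjusted p = 4.74e-04). The 4-week call to Col7a1 was lost without replicate 2, 3 or 4, and the 8-week call was kept under every alternative. Of 5 basal epithelium markers, Krt14 (-0.54), Lamb3 (-0.56) and Itgb4 (-0.21) were lower and Trp63 (0.68) was higher at 4 weeks. At 8 weeks Krt14 (0.73), Lamb3 (0.39) and Trp63 (0.36) were higher, and Itgb4 was not called (-0.02). Krt5 was not called at either time (0.16 and 0.05). The summed intensity of the 5 was 16987 to 20313 with DEP RNA and 16465 to 19183 with control RNA at 4 weeks, ranges that overlap, and 22252 to 26497 against 20425 to 22164 at 8 weeks. Their part in the Col7a1 and Col17a1 ratios was not tested.

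The promoter windows of these genes, called higher together at 8 weeks, are chr19:47691993-47692292 (minus strand) for Col17a1 and chr9:108953336-108953635 (plus strand) for Col7a1, with the same motifs in capitals.
Col17a1: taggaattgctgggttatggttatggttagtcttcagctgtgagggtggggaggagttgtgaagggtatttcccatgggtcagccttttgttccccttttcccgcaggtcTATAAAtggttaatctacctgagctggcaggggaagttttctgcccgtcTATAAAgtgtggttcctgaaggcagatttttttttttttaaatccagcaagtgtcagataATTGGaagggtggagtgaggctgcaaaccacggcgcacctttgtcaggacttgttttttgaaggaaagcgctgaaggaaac
Col7a1: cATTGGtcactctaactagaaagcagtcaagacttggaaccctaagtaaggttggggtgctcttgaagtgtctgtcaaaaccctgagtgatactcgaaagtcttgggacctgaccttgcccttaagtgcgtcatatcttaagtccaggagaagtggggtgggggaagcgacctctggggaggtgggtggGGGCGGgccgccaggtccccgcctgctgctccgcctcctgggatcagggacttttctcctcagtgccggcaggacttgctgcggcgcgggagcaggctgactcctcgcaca
The Col17a1 window holds 2 TATAAA and 1 CCAAT, the latter with its first base at -31, and 0 GGGCGG. The Col7a1 window holds 1 CCAAT at -249 and 1 GGGCGG at -61, and 0 TATAAA.

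Of the remaining genes, Col8a2, a collagen of the hexagonal network under endothelium, was lower at 4 weeks at -0.26 ± 0.05 (adjusted p = 5.54e-03), while a dimmer probe of it gave -0.55 without a call. Col8a1 gave -0.11, -0.29, -0.25 and -0.18 at 4 weeks and -0.74, -0.10 and 0.14 at 8 weeks, with no call (means -0.21 and -0.23). Col10a1 of hypertrophic cartilage (0.12 and -0.03) and Col15a1 (0.03 and 0.14) were not called, nor were Col24a1 and Col25a1. At 4 weeks Col24a1 was not well above background in either channel, and Col25a1 was not in the control channel. Col23a1 gave 0.12, -0.08, 0.11 and -0.13 at 4 weeks and -0.11, -0.17 and -0.28 at 8 weeks, without a call (means 0.01 and -0.19), and a second probe gave -0.17 at 4 weeks with an adjusted p of 0.024. Col18a1, whose C-terminal fragment is endostatin, gave -1.19 on replicate 4 of 4 weeks and -0.37 to -0.03 on the other 3 arrays, with a mean of -0.45 that was not called (adjusted p = 0.0654). Its second probe gave -0.09 at 4 weeks and 0.22 at 8 weeks (adjusted p = 0.033), against -0.14 for the brighter probe at 8 weeks. Col26a1 gave -0.04, -1.79, -0.11 and -0.02 at 4 weeks, so that replicate 2 stood apart, and 0.14, -0.05 and -0.28 at 8 weeks, with no call (adjusted p = 0.204 and 0.908). None of the 8 dim genes was well above background in either channel of any array but Col13a1 and Col6a5, each on 1 control array of 4 weeks.

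The difference between both exposure times was tested in the same model, as the DEP effect at 8 weeks minus that at 4 weeks. Of the 36 collagen genes 16 had a higher ratio at 8 weeks and 0 a lower one. Over all genes tested, 14.9% were called higher and 16.1% lower in this difference. The median difference was 0.31 for the collagen genes and 0.02 for all genes. Of the fibrillar class 7 of 11 were called. On 17 of the 36 genes every 8-week array lay above every 4-week array, and on 2 every one lay below. This was not counted over all genes, so it is no result about the collagens. With median centring the count was 10 higher and 1 lower, with the processed signals 15 higher and 3 lower, and with the background correction fitted on all spots 12 higher.

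The largest differences were 2.03 ± 0.10 for Col3a1 (adjusted p = 2.05e-05), 1.57 ± 0.12 for Col12a1 (adjusted p = 1.37e-04), 1.55 ± 0.20 for Col17a1 (adjusted p = 1.41e-03) and 1.20 ± 0.10 for Col1a1 (adjusted p = 2.16e-04). These 4 were kept under every alternative. Col5a2 (0.78), Col11a1 (0.73), Col16a1 (0.56), Col4a4 (0.55), Col14a1 (0.48), Col6a3 (0.47), Col5a3 (0.47), Col1a2 (0.44), Col7a1 (0.40), Col11a2 (0.37), Col8a2 (0.31) and Col4a1 (0.31) were also called higher, the value of Col4a4 resting on a dim control level at 4 weeks. Of these, Col14a1 lost its call without replicate 2 of 8 weeks, Col7a1 without replicate 3 of 8 weeks, Col8a2 without replicate 2 of 4 weeks or 3 of 8 weeks, Col11a2 without replicate 2 or 3 of either time, Col1a2 without replicate 2, 3 or 4 of 4 weeks or 1 or 2 of 8 weeks, and Col4a1 without replicate 2 or 4 of 4 weeks or any array of 8 weeks. With median centring Col16a1, Col7a1, Col8a2, Col11a2, Col1a2 and Col4a1 lost their calls. With the background correction fitted on all spots Col14a1, Col8a2, Col11a2 and Col4a1 lost theirs, and with the processed signals Col1a2, Col4a1 and Col8a2. The mean of all probes ended the calls to Col14a1 and Col8a2, and leaving out the filter on dim probes ended that to Col11a2. Col9a2 (-0.31, adjusted p = 0.0511) had the lowest difference. Counting genes called at both times, 4 collagen genes were lower at 4 weeks and higher at 8 weeks (Col1a1, Col3a1, Col5a2 and Col12a1), as were 2.58% of all genes. Another 2 (Col4a6 and Col7a1) were higher at both times, as were 8.1% of all genes, 1 (Col22a1) was lower at both times, as were 4.97%, and 0 were higher and then lower, as were 3.48%.

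Because each array carried control RNA in its Cy3 channel, the level of each probe was also compared within that channel. Whether control RNA was pooled or shared between arrays is not given in the sources used here. The p-values of this comparison therefore measure the spread between arrays, which may not be that between mice. Between the control tissue of 8 and 4 weeks, 8 collagen genes were lower and 4 higher at 8 weeks, against 11.8% and 21.5% of all genes. The mice of the later time were older and their arrays lay on another slide, which cannot be told apart. Quantile normalization of the control channel alone gave 6 lower and 5 higher, and the count of higher genes ran from 1 (without replicate 2 of 8 weeks) to 6 (without replicate 2 of 4 weeks).

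For Col3a1 the log2 intensity in control tissue was 12.90 ± 0.01 (SD, n = 4) at 4 weeks and 12.08 ± 0.20 (SD, n = 3) at 8 weeks, a difference of -0.82 (adjusted p = 8.07e-04). In DEP tissue it was 11.79 ± 0.15 and 13.00 ± 0.17. At 8 weeks the control level was thus the lower of the 2 control levels and the DEP level the higher of the 2 DEP levels. Col12a1 was alike, with 8.87 ± 0.08 and 8.21 ± 0.10 in control tissue (difference -0.66, adjusted p = 6.36e-04) and 7.86 ± 0.19 and 8.78 ± 0.24 in DEP tissue. Col1a1 differed from them, with 14.06 ± 0.13 and 14.01 ± 0.10 in control tissue (difference -0.05, adjusted p = 0.706) and 13.52 ± 0.11 and 14.68 ± 0.14 in DEP tissue.

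Col17a1 was at 8.42 ± 0.11 and 8.55 ± 0.13 in control tissue (adjusted p = 0.320), and at 8.14 ± 0.24 and 9.81 ± 0.59 in DEP tissue. Col4a1 was lower in control tissue at 8 weeks by -0.56 (adjusted p = 2.27e-03), at 8.22 ± 0.12 and 7.66 ± 0.09, and stood at 7.83 ± 0.05 and 7.58 ± 0.05 in DEP tissue. Col4a2 (-0.40), Col16a1 (-0.32), Col5a3 (-0.33), Col5a1 (-0.30) and Col6a3 (-0.28) were the other genes lower in control tissue at 8 weeks, and Col20a1 (0.38), Col8a2 (0.21), Col9a1 and Col4a4 were higher, the last 2 with control levels at 4 weeks that were not well above background. The calls to Col4a2, Col4a4, Col6a3, Col8a2 and Col20a1 in control tissue were lost when single arrays were left out.

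**Figure D3:**
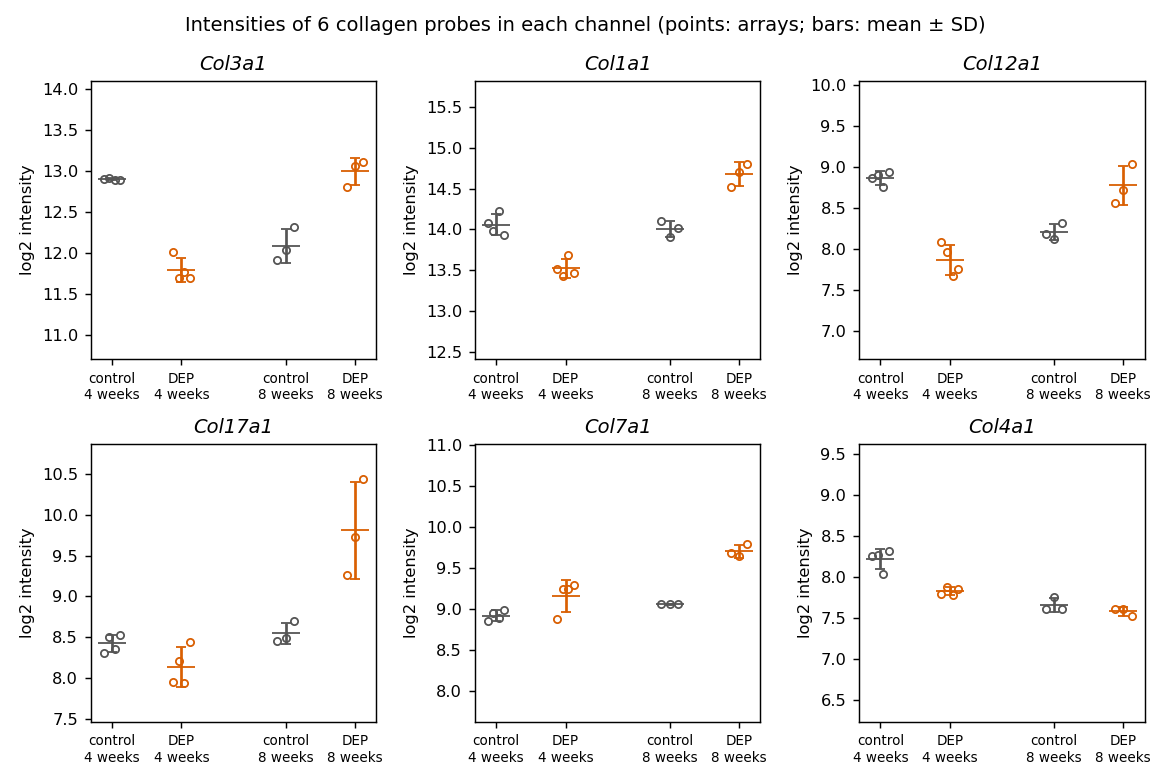
Log2 intensity (y axis, each panel spans the same range) of 6 collagen probes in the control (grey) and DEP (orange) channel at 4 and 8 weeks. Points are arrays, and bars are means with SD. Col3a1 and Col12a1 fell in control tissue between the times, Col1a1 differed by -0.05 there, and the 3 DEP arrays of Col17a1 at 8 weeks spread from one another more than those of the other genes.

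Collagen chains need enzymes and chaperones in the endoplasmic reticulum to hydroxylate, glycosylate and fold them. Of 19 tested genes of this kind 8 were lower and 2 higher at 4 weeks (median -0.14), and 7 were higher and 0 lower at 8 weeks (median 0.16). The counts of this and the following lists stand against 16.5% lower and 21.6% higher over all genes at 4 weeks, and 17% lower and 20.3% higher at 8 weeks. Serpinh1, the collagen chaperone HSP47, was lower at 4 weeks at -0.85 (adjusted p = 3.3e-04) and higher at 8 weeks at 0.49 (adjusted p = 7.9e-03). Plod2, a lysyl hydroxylase, was lower at 4 weeks at -0.79 and not called at 8 weeks (0.15). P3h1, a prolyl 3-hydroxylase, and Mia3, which loads procollagen for export, were higher at 4 weeks (0.61 and 0.38). At 8 weeks P4ha3, a prolyl 4-hydroxylase subunit, was higher at 0.95 and P3h4 and Fkbp10 at 0.39.

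Outside the cell, propeptides are cut off and fibrils are cross-linked. Of 11 tested genes of this step 3 were lower and 1 higher at 4 weeks, and 0 were higher and 1 lower at 8 weeks, so that these counts are no result about the list beside the shares over all genes. Adamts2, the N-propeptide protease of fibrillar procollagens, was lower at 4 weeks at -0.73 (adjusted p = 2.6e-04), and so were the cross-linking enzyme Lox (-0.37) and the enhancer of C-propeptide cleavage Pcolce (-0.25). Its relative Pcolce2 was higher at 4 weeks (0.25) and lower at 8 weeks (-0.50).

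Proteins bound to fibrils had the lowest median of the partner lists at 4 weeks. Of 11 tested, 9 were lower and 2 higher at 4 weeks (median -0.44), and 3 were higher and 1 lower at 8 weeks (median -0.01). Postn, periostin of periosteum and periodontal ligament, was lower at -1.30 (adjusted p = 2.2e-05) and then higher at 0.69 (adjusted p = 8.9e-04). The proteoglycan Lum was lower at -0.98 and then higher at 0.48, and Omd, a proteoglycan of mineralized tissue, was lower at -0.96 and not called at 8 weeks (-0.07). Sparc was lower at 4 weeks at -0.60. Bgn was higher at both times (0.34 and 0.98), and its control level was higher by 2.36 at 8 weeks than at 4 weeks.

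Among 7 tested collagen receptors, 2 were lower and 1 higher at 4 weeks, and 4 were higher and 1 lower at 8 weeks, the 4-week counts lying near the shares over all genes. The fibroblast integrin Itga11 was lower at 4 weeks at -0.22 (adjusted p = 0.024) and higher at 8 weeks at 0.34 (adjusted p = 7.4e-03). Lair1, an inhibitory receptor of immune cells, was higher at both times (0.38 and 0.64). Of the 15 other basement membrane genes 6 were lower and 2 higher at 4 weeks, and 6 were higher and 1 lower at 8 weeks. Lamb3, a laminin chain of epithelial basement membrane, was lower at 4 weeks (-0.56) and higher at 8 weeks (0.39), whereas Col7a1 was higher at both times. The proteoglycan Agrn was higher at both times (0.31 and 0.59), and Hspg2, the basement membrane proteoglycan perlecan, was higher at 8 weeks at 0.61 and not called at 4 weeks (0.10).

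**Figure D4:**
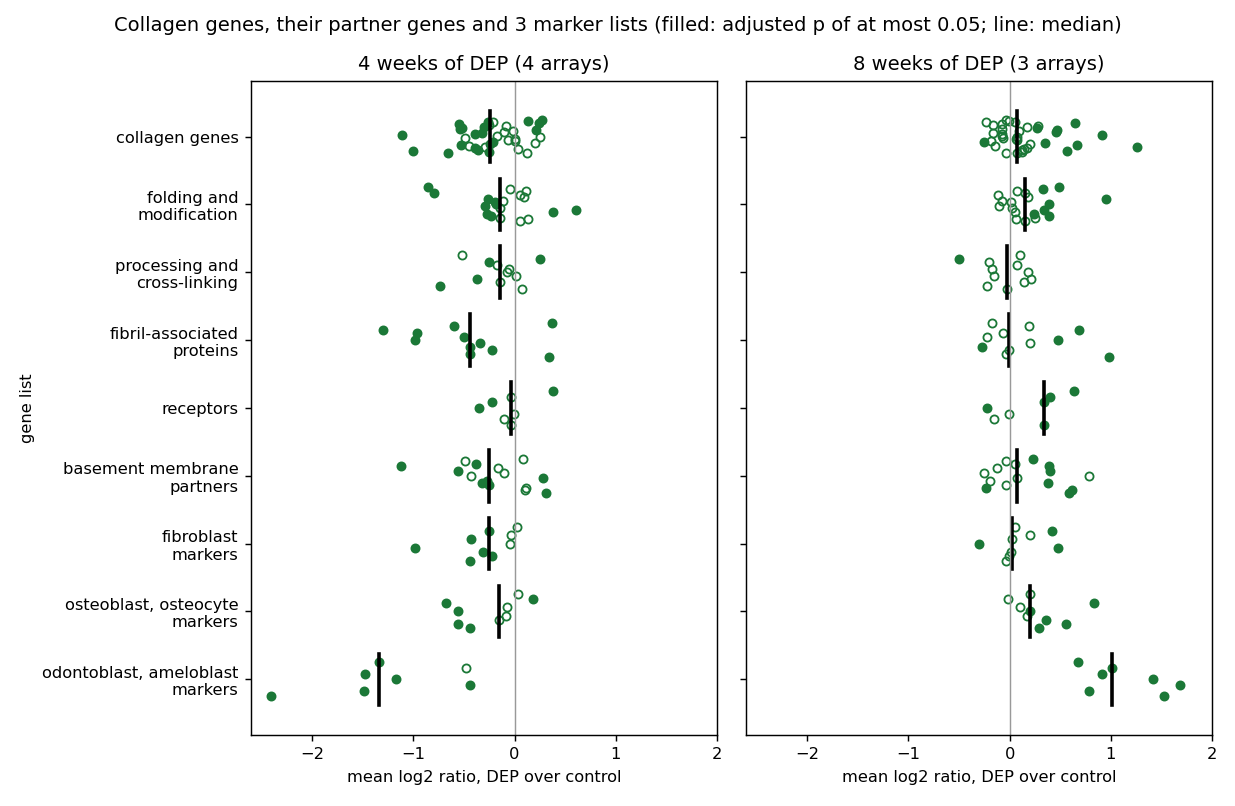
Mean log2 ratio of DEP over control (x axis) at 4 weeks (left) and 8 weeks (right) for the collagen genes, 5 lists of partner genes and 3 lists of cell type markers (y axis). Each point is a gene, filled where its adjusted p is at most 0.05, and lines are medians. The collagen median was -0.24 and then 0.07, and the odontoblast and ameloblast markers had medians of -1.33 and 1.01.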

How the data were processed

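The authors deposited 1 Feature Extraction 10.10.1.1 file per array, in which the scanner software wrote each spot's and background's median intensity without subtraction or normalization. GeneSpring normalization, named in the study's methods, is not part of these files. With limma 3.58.1 (R 4.3.3), backgrounds were corrected by normexp (offset 50), fitted without spots marked as background outliers, and loess was applied to the log2 ratios of each array. Non-uniform spots were left out and repeated spots averaged. RefSeq (GRCm38.p6) named 28330 of 39429 probes. The test took 25162 probes that stood well above background, with DEP or control RNA, on 3 or more of the 7 arrays, and a gene's value is its brightest tested probe (20664 names). One linear model gave a mean per exposure time. Channel levels were scaled by Aquantile. The steps were tested on simulated arrays. No spot was saturated, and the number of arrays limits precision. The replicate numbers do not pair arrays: deviations of same-numbered arrays correlated at -0.01 to 0.02.

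The collagen genes and all lists were chosen with earlier results of these data known. Values on every array are given for 10 collagen genes fixed by name (Col1a1, Col1a2, Col2a1, Col3a1, Col4a1, Col4a2, Col7a1, Col11a1, Col12a1 and Col17a1) and for the 5 highest and 5 lowest mean ratios at each time, and of other lists at most 4 called genes per time.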

Additional observations from a re-analysis of the deposited data

Results flagged for a closer look

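On the 4-week arrays, 3 of the 36 tested collagen genes had 1 array far from the other 3, and chance gives such a gap in about 1 of 20 genes. Col26a1 had a log2 ratio of -1.79 on replicate 2 and -0.11 to -0.02 on the others, and its control signal there was 490 against 116 to 122. Col22a1 stood at 0.029 on replicate 1 and at -0.30 to -0.29 on the others. Col7a1 stood at 0.024 on replicate 1 and at 0.30 to 0.35 on the others. Among the list medians at 4 weeks, replicate 1 stood apart for the fibril-surface (FACIT) collagens at 0.029, where its value is that of Col22a1, for the processing and cross-linking genes at -0.33 and for the fibril-bound proteins at -0.57.

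The ratios of 16 collagen genes differed between 8 and 4 weeks in the test of the difference itself, with values of 2.03 for Col3a1, 1.57 for Col12a1, 1.55 for Col17a1, 1.20 for Col1a1, 0.78 for Col5a2, 0.73 for Col11a1, 0.56 for Col16a1, 0.55 for Col4a4, 0.48 for Col14a1, 0.47 for Col6a3, 0.47 for Col5a3, 0.44 for Col1a2, 0.40 for Col7a1, 0.37 for Col11a2, 0.31 for Col8a2 and 0.31 for Col4a1. The slide divides the arrays in the same way as the exposure time, and the 2 cannot be told apart.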

How the results depend on the processing

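Of 58 calls to single collagen genes, 32 were kept under every alternative run, and of the 901 values they took there 776 stayed past the threshold and 0 changed sign. At 4 weeks the count of higher genes, 4, was 0 with normexp fitted on all spots, 1 with median centring, 2 without a filter on dim probes, 2 with the methods' t-test (Benjamini-Hochberg adjusted) and 7 with the processed signals, and it was 0 to 4 when 1 array was left out. The 2-fold lower count of 2 was 1 with normexp on all spots, 2 with that t-test at the study's thresholds and 1 to 2 leaving out 1 array, and the 2-fold higher count of 0 was 1 with the processed signals. At 8 weeks the higher count of 9 was 5 with the t-test, the lower count of 1 was 5 with median centring, 0 without the filter and 2 with the t-test, and 0 to 1 leaving out 1 array, and the 2-fold higher count of 1 was 0 with median centring, 0 with the t-test and 2 with the processed signals. The difference of 16 higher and 0 lower was 10 and 1 with median centring, and 1 lower came also from the mean of all probes, from no background correction and from the strict filter, 3 from the processed signals and 0 to 1 from leaving out 1 array. With the replicate block, which the numbers do not warrant as pairs, 11 were higher. In control tissue the count of 4 higher was 1 to 6 leaving out 1 array. The collagen median at 8 weeks, 0.07, was -0.0090 with median centring, 0.12 with an offset of 16, 0.15 with the processed signals and 0.12 with the strict filter, and the fibrillar median at 4 weeks, -0.30, was -0.43 with the processed signals and -0.42 with the strict filter. Signs changed only for genes without a call. At 8 weeks these were Col11a1 at -0.039 (median centring), Col1a2 at -0.097 and Col5a1 at 0.015 (processed signals), and, leaving out 1 array, Col27a1 (-0.021 to 0.18), Col5a1 (-0.17 to 0.082), Col8a1 (-0.42 to 0.024) and Col9a2 (-0.16 to 0.022). At 4 weeks they were Col23a1 at -0.080 (mean of probes), -0.0096 (median centring) and -0.052 (no background correction), and, leaving out 1 array, Col23a1 (-0.033 to 0.050) and Col2a1 (-0.26 to 0.0067). The cause of these changes was not tested. Dim probes limit Col4a4, Col9a1, Col24a1 and Col25a1 at 4 weeks, whose control level was not well above background. For Col24a1 the DEP level at 4 weeks was not well above background either.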
